A study of Mus musculus with 24 samples.

Results

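7SK and 7SL are abundant short non-coding RNAs made by RNA polymerase III, and they are described here by 3 genes: Rn7sk for 7SK, and Rn7s1 and Rn7s2 for 7SL. They were chosen by gene symbol, as 3 of the 102001 transcripts listed in all 5 tables of cell surface RNA and as 3 of the 55335 genes counted in the RNA of peripheral blood mononuclear cells (PBMC). The study used a method called AMOUR to profile RNA on the outer surface of fixed, unpermeabilised mouse cells: cells were held on lectin-coated beads, a random primer carrying a T7 promoter was annealed to the exposed RNA, and T7 RNA polymerase amplified it in place. There were 15 such libraries, 3 each of splenic B cells, T cells and NK cells and of bone marrow monocytes and haematopoietic stem and progenitor cells (HSPC), all from wild-type C57BL/6 mice. The T cells came from a CD8+ isolation kit and the HSPC from lineage depletion, per the study's methods. The 9 PBMC libraries came from the blood of wild-type mice in 3 groups of 3 whose treatment labels read ct, WT and Y and are not explained further, so these groups are called by those labels.

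7SL RNA is the scaffold of the signal recognition particle (SRP), the cytosolic ribonucleoprotein that binds signal peptides on the ribosome and brings the ribosome to the endoplasmic reticulum. 7SK RNA is mostly nuclear: capped by Mepce and bound by Larp7, it holds Hexim proteins and with them P-TEFb (Cdk9 and its cyclin T partner), the kinase that releases paused RNA polymerase II. Both RNAs are found in every nucleated cell type, and neither codes for a protein.

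The sequence of 7SK is shown because it carries the letters that Hexim proteins contact. It was taken from the GENCODE M21 transcripts on GRCm38, 5′ to 3′, by gene symbol. The surface tables give Rn7sk another transcript identifier, whose sequence was not compared with the one printed. Rn7sk is a single-exon gene of 331 bases on the minus strand (chr9:78175303-78175633), and its first 300 bases are printed with the motif GATC in capitals.
Rn7sk: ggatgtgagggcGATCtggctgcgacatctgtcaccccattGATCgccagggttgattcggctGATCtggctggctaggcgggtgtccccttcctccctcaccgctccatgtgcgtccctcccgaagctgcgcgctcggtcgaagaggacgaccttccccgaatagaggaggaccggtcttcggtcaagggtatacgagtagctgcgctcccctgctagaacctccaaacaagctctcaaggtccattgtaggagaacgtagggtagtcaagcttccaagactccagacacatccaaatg
Rn7s1 and Rn7s2 are single-exon genes of 300 bases each, and they were identical to each other at 100% of their bases. All 3 genes are annotated as misc_RNA. GATC is the letter sequence of the Hexim contact in 7SK RNA, and it occurred at positions 13, 42 and 64 of Rn7sk, counted from its 5′ end (the motif reads the same on both strands). Among the first 331 bases of 129282 annotated transcripts, 61.9% held GATC at least once and 7.99% held it 3 or more times, so these letters are common and the match is a description only. The 7SL genes hold them 4 times each.

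Because Rn7s1 and Rn7s2 do not differ in a base, no read can be assigned to either. The surface tables give both the same TPM (transcripts per 1000000, a share corrected for length) in 15 of 15 libraries, so the value of Rn7s1 is given below and 7SL means both rows together. In the PBMC files the 7SL counts were divided between the 2 rows, with 46.6 to 56.9% placed on Rn7s1, and the sum is the quantity to read. Partial or diverged copies of either RNA are annotated elsewhere in the genome (at least 90% identity over 100 bases or more). The 7 copies of 7SL were all listed in the surface tables and together held at most 0.416% of the 7SL signal there, and 0.439 to 0.830% in PBMC. The 12 copies of 7SK held 1.96 to 5.98% of the 7SK signal in PBMC, and no surface row could be matched to them by identifier.

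The surface TPM are shares of each library, and a few classes took most of it. After setting aside ribosomal RNA and the non-coding transcripts Gm55936, Gm55094 and Gm55118, 9.00 to 13.1% of the TPM was left in HSPC and 49.1 to 50.6% in monocytes, with 25.2 to 42.5% in the other 3 cell types. Those 3 Gm transcripts alone held 74.3 to 83.3% of HSPC libraries. For this reason each level of the RNAs studied here is given both as deposited and rescaled to the same total without these rows. The marker sums below are given as deposited only. The depth behind the TPM is unknown. As deposited, marker transcripts followed the labels in 4 cell types. In the remaining one, the summed HSPC markers (Kit, Cd34, Gata2, Mpo and Ly6a) were higher in monocytes (302 ± 75.3 TPM, SD, n = 3) than in HSPC (92.7 ± 33.0). Rescaling would raise the HSPC sum more, as 9.00 to 13.1% of the TPM was left there, against 49.1 to 50.6% in monocytes. This order can therefore depend on the rows counted in the total, and it is not read as a departure from the label. Neutrophil markers reached 1410 ± 49.6 TPM in monocytes. NK libraries held B cell markers at 140 ± 11.5 TPM, against 1094 ± 193 in B cells. The part of these other cell types in the results was not tested. The monocyte libraries were sequenced on another instrument than the rest, so cell type and platform cannot be told apart for them.

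7SL was the most abundant surface RNA among the transcripts listed, outside the rows set aside, in all 3 T cell libraries. Transfer RNAs encoded in the nucleus were not analysed here. Rn7s1 stood at 24704, 25600 and 16308 TPM in T cells. In B cells it stood at 9641, 12678 and 12799 TPM, and in NK cells at 10655, 9371 and 9770. Every T cell library was above every library of the other cell types, while B and NK cells overlapped. Monocytes held 4824, 4551 and 5888 TPM, and HSPC held 2234, 3501 and 2921 TPM. HSPC were lowest, with no overlap with any other cell type on this scale. By mean the order was T cells (22204 ± 5126, SD, n = 3), B cells (11706 ± 1789), NK cells (9932 ± 657), monocytes (5088 ± 706) and HSPC (2885 ± 634), a range of 7.70-fold.

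Against the mean of the other 4 cell types (limma on log2(TPM + 1), Benjamini-Hochberg over 1142 transcripts), 7SL was higher in T cells by 1.77 (SE 0.17, adjusted p = 4.27e-07), where 81.6% of all transcripts tested were called. It was also higher in B cells by 0.64 (SE 0.17, adjusted p = 0.00445, limma), where 63.2% were called. That B cell call was lost without the monocyte libraries (0.45, adjusted p = 0.0638, limma) and without the filter on low TPM (adjusted p = 0.0554), and quantile normalization turned the value to −0.61. The opposite was seen in HSPC (−1.90, adjusted p = 1.75e-07, limma; 75.0% called) and in monocytes (−0.86, adjusted p = 0.000245, limma; 83.2% called). Quantile normalization turned the HSPC value to a very small positive one. In NK cells the difference of 0.35 did not pass (adjusted p = 0.107 and unadjusted p = 0.0540, limma; 38.9% called). These shares of called transcripts are large, so a call by itself does not set 7SL apart, and the median transcript also moved in each comparison: −1.10 in T cells, −0.55 in B cells, −0.14 in NK cells, −1.38 in HSPC and 3.02 in monocytes. Relative to that median 7SL was up in T cells, where most transcripts were down, and down in monocytes, where most transcripts were up.

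Rescaled without ribosomal RNA and the 3 Gm transcripts, T cells kept the highest mean 7SL level and monocytes became the lowest. Rn7s1 was then at 59596, 60254 and 46079 TPM in T cells, and at 37546, 46472 and 50819 in B cells. The T and B cell libraries overlapped on this scale. NK cells held 30863, 28733 and 29575 TPM, HSPC 24828, 26700 and 26753, and monocytes 9542, 9263 and 11904. The monocyte libraries stood below all the others, and the largest ratio of means, T cells to monocytes, was 5.40-fold. The difference from the other 4 cell types was 1.17 in T cells (SE 0.11, adjusted p = 5.92e-07, limma over 2395 transcripts; 82.7% called), 0.79 in B cells (adjusted p = 4.83e-05; 54.5% called) and −1.84 in monocytes (adjusted p = 3.15e-09; 87.0% called). Neither NK cells (0.06, adjusted p = 0.671, limma; 43.1% called) nor HSPC (−0.18, adjusted p = 0.196; 53.7% called) differed beyond the spread, so the low HSPC level of the deposited scale was not seen here.

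**Figure D1:**
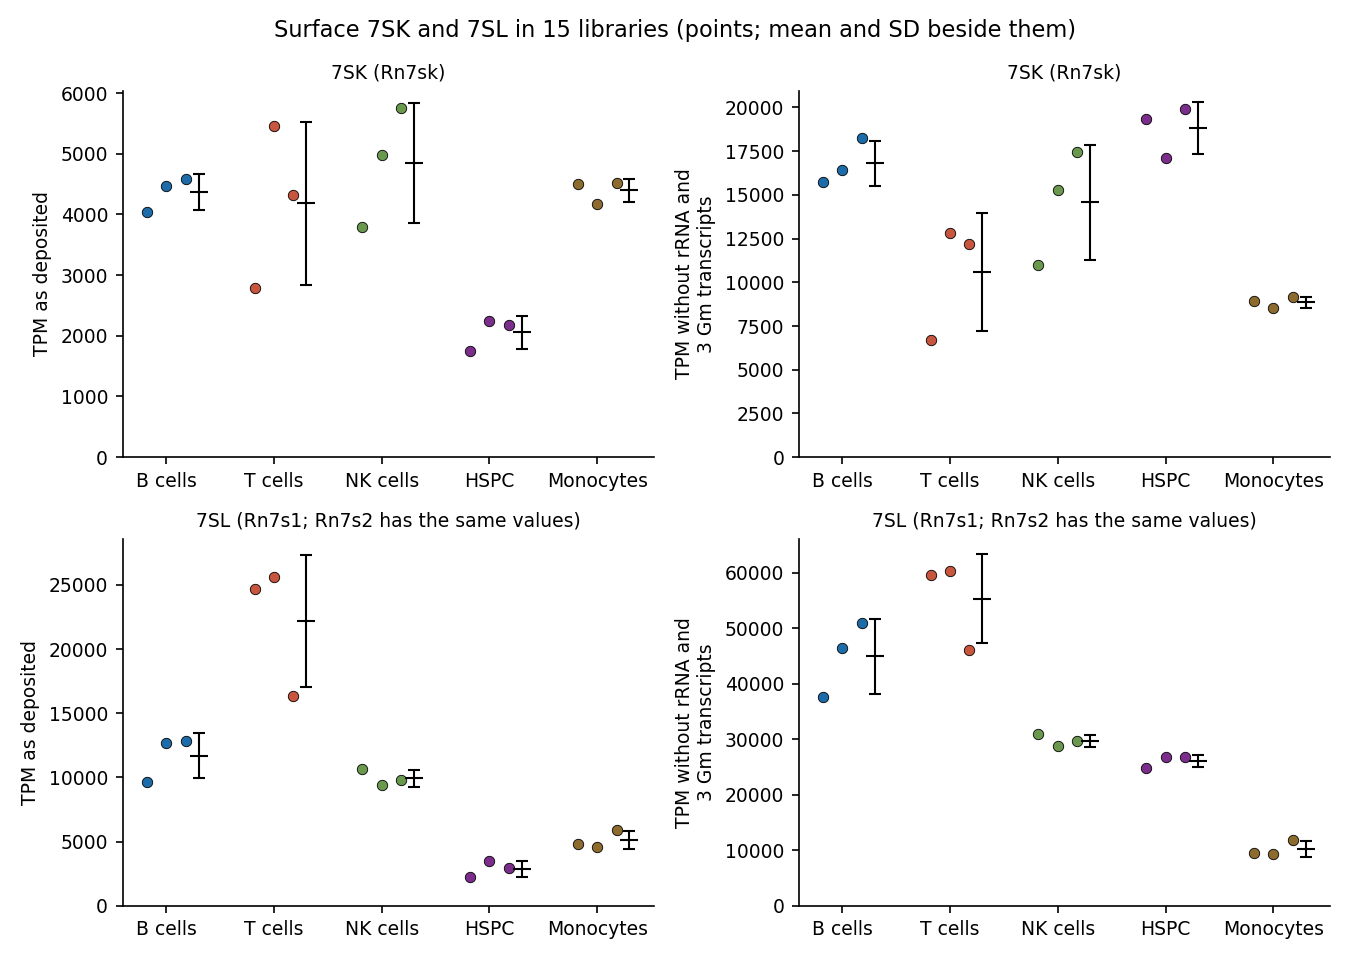
TPM of 7SK (top) and 7SL (bottom, the Rn7s1 row) in each of 15 surface libraries, as deposited (left) and rescaled without ribosomal RNA and 3 Gm transcripts (right); points are libraries and the bars beside them are mean and SD over 3 libraries. T cells hold the highest mean 7SL on both scales, while HSPC pass from the lowest mean 7SK (2055) to the highest (18810.0).

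7SK was more even across the cell types. Rn7sk stood at 4043, 4477 and 4593 TPM in B cells and at 2782, 5454 and 4323 in T cells. NK cells held 3795, 4987 and 5762 TPM and monocytes 4503, 4179 and 4516. Those 4 cell types all overlapped. HSPC held 1742, 2246 and 2177 TPM, below every library of the others. The means ran from 4848 ± 991 in NK cells through 4399 ± 191 in monocytes, 4371 ± 290 in B cells and 4186 ± 1341 in T cells to 2055 ± 273 in HSPC (SD, n = 3), a range of 2.36-fold. T cell library 1 was the lowest of the 12 libraries outside HSPC for 7SK, although its 7SL was among the highest.

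As deposited, the difference of 7SK from the mean of the other 4 cell types passed in HSPC alone, at −1.10 (SE 0.18, adjusted p = 8.59e-05, limma), which is a smaller fall than that of the median transcript there. The values elsewhere were 0.43 in NK cells (adjusted p = 0.0745, limma), 0.28 in monocytes (0.161), 0.27 in B cells (0.218) and 0.12 in T cells (0.544). The NK value was near the threshold and had an unadjusted p of 0.0340 (limma). It passed with a replicate block (adjusted p = 0.0498, limma), without NK library 1 (0.60, adjusted p = 0.0416) and without T library 2 (0.48, adjusted p = 0.0343).

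On the rescaled values the order of 7SK was reshuffled. HSPC then held 19361, 17133 and 19936 TPM and monocytes 8907, 8505 and 9131. T cells held 6711, 12837 and 12215 TPM. The B cell values were 15746, 16413 and 18236 and the NK values 10994, 15291 and 17444, overlapping each other and HSPC. 7SK was now higher in HSPC by 0.62 (SE 0.18, adjusted p = 0.00940, limma) and lower in T cells by −0.48 (adjusted p = 0.0223) and in monocytes by −0.70 (adjusted p = 0.00216), with B cells at 0.42 (adjusted p = 0.0593) and NK cells at 0.14 (adjusted p = 0.543). The median of all transcripts in these comparisons was 0.34 in HSPC, −1.96 in T cells, 2.63 in monocytes, −0.59 in NK cells and −0.47 in B cells. The direction of 7SK in HSPC, T cells and monocytes therefore depended on the rows counted in the total.

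**Figure D2:**
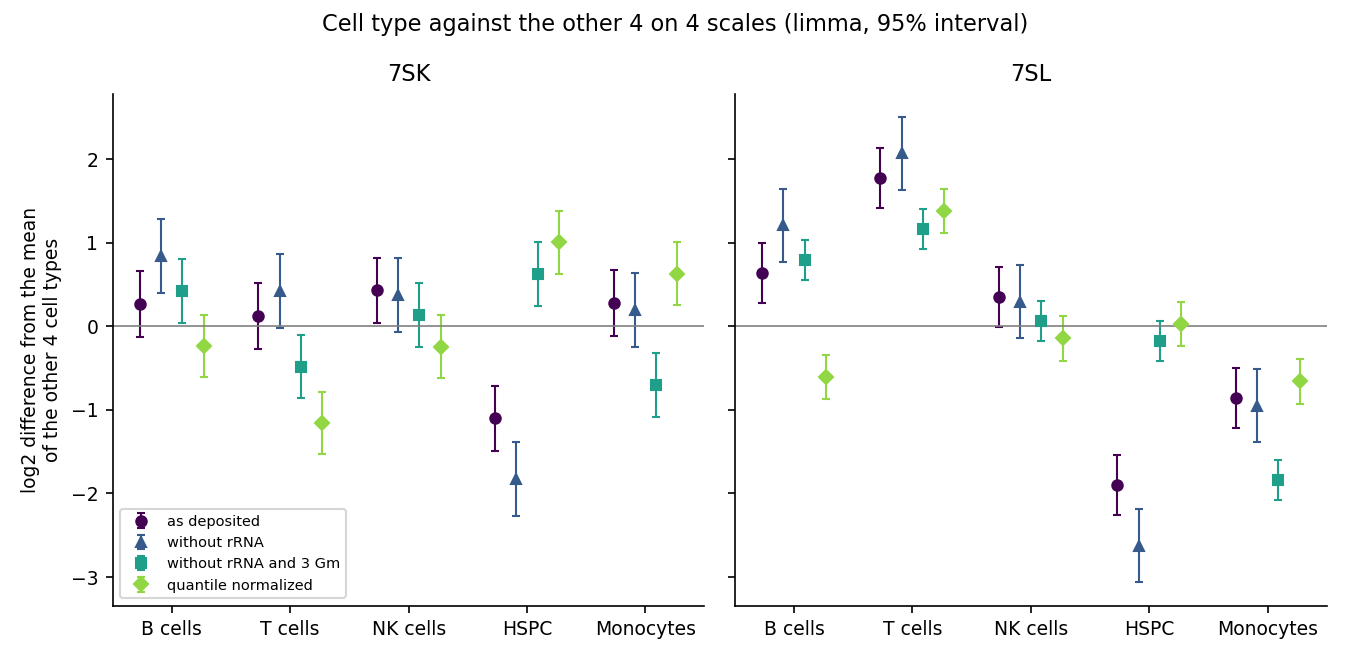
Log2 difference of 7SK (left) and 7SL (right) in each cell type from the mean of the other 4, with 95% intervals from limma, on 4 scales: as deposited, without ribosomal RNA, without ribosomal RNA and the 3 Gm transcripts, and quantile normalized. 7SL in T cells lies above 0 on all 4 scales (1.17 to 2.07), whereas the HSPC points for 7SK and the B cell points for 7SL lie on both sides of 0.

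Pairs of cell types placed the neighbours in these orders. For 7SL as deposited, 9 of 10 pairs passed and B against NK cells did not (0.23, adjusted p = 0.420, limma; 41.3% of all transcripts called). T cells exceeded B cells by 0.91 (adjusted p = 0.00310, limma; 49.2% called) and HSPC by 2.94 (adjusted p = 3.78e-08; 60.9% called). NK cells exceeded monocytes by 0.97 (adjusted p = 0.000736, limma; 83.4% called), and HSPC were below monocytes (−0.83, adjusted p = 0.00192; 89.7% called). In the other 5 pairs that passed for 7SL, 56.5% (B cells and HSPC), 87.7% (B cells and monocytes), 47.2% (T and NK cells), 86.3% (T cells and monocytes) and 45.9% (NK cells and HSPC) of transcripts were called. For 7SK only the 4 pairs with HSPC passed, at 1.10 for B cells, 0.98 for T cells and 1.23 for NK cells over HSPC, and −1.11 for HSPC against monocytes (adjusted p from 0.000394 to 0.00202, limma).

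After rescaling, 8 of 10 pairs passed for 7SL, where 32.4% (B and NK cells) to 85.3% (T cells and monocytes) of all transcripts were called. The difference between T and B cells no longer passed (B minus T −0.30, adjusted p = 0.0808, limma; 60.2% called), nor did that between NK cells and HSPC (0.19, adjusted p = 0.270; 52.5% called). B cells exceeded NK cells by 0.59 (adjusted p = 0.00632, limma; 32.4% called), and HSPC exceeded monocytes by 1.33 (adjusted p = 2.00e-06; 68.8% called), the reverse of the deposited scale. For 7SK no pair of neighbours in the order HSPC, B, NK, T, monocytes differed beyond its spread (adjusted p = 0.568, 0.485, 0.0799 and 0.476, limma), where 53.9%, 32.4%, 51.4% and 85.3% of transcripts were called. Among the other 6 pairs, 5 passed for 7SK: HSPC over monocytes by 1.06 (adjusted p = 0.000886, limma; 68.8% called), B cells over monocytes by 0.90 (adjusted p = 0.00213; 83.0% called), HSPC over T cells (T minus HSPC −0.88, adjusted p = 0.00286; 72.0% called), B cells over T cells by 0.72 (adjusted p = 0.0134; 60.2% called) and NK cells over monocytes by 0.67 (adjusted p = 0.0134; 82.0% called).

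The ratio of 7SL to 7SK within a library does not depend on what else takes part of the total. It was 17.8, 9.39 and 7.54 in T cells and 4.77, 5.66 and 5.57 in B cells, counting both 7SL rows. The T cell libraries were all above the others, with library 1 far above the other T cell libraries. NK cells had ratios of 5.61, 3.76 and 3.39, HSPC of 2.56, 3.12 and 2.68, and monocytes of 2.14, 2.18 and 2.61. The means were 11.6 ± 5.4 in T cells, 5.34 ± 0.49 in B cells, 4.25 ± 1.19 in NK cells, 2.79 ± 0.29 in HSPC and 2.31 ± 0.26 in monocytes (SD, n = 3). On the log2 scale of 7SK over 7SL, T cells differed from the other 12 libraries by −1.65 (exact two-sided permutation test, p = 0.00220, the smallest that 455 choices allow; adjusted p = 0.0110 over 5 tests). Monocytes differed by 1.14, which did not pass after adjustment (exact permutation p = 0.0352, adjusted 0.0879), and overlapped HSPC. The values for HSPC (0.80, adjusted p = 0.271), B cells (−0.37, adjusted p = 0.659) and NK cells (0.08, adjusted p = 0.912) did not pass in the same exact permutation test. Without any one of the T cell libraries the adjusted p was 0.0549. The unadjusted exact permutation p was then 0.0110, the smallest that 91 choices of 2 libraries allow. Differences ran from −1.91 to −1.29 over all libraries left out in turn.

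**Figure D3:**
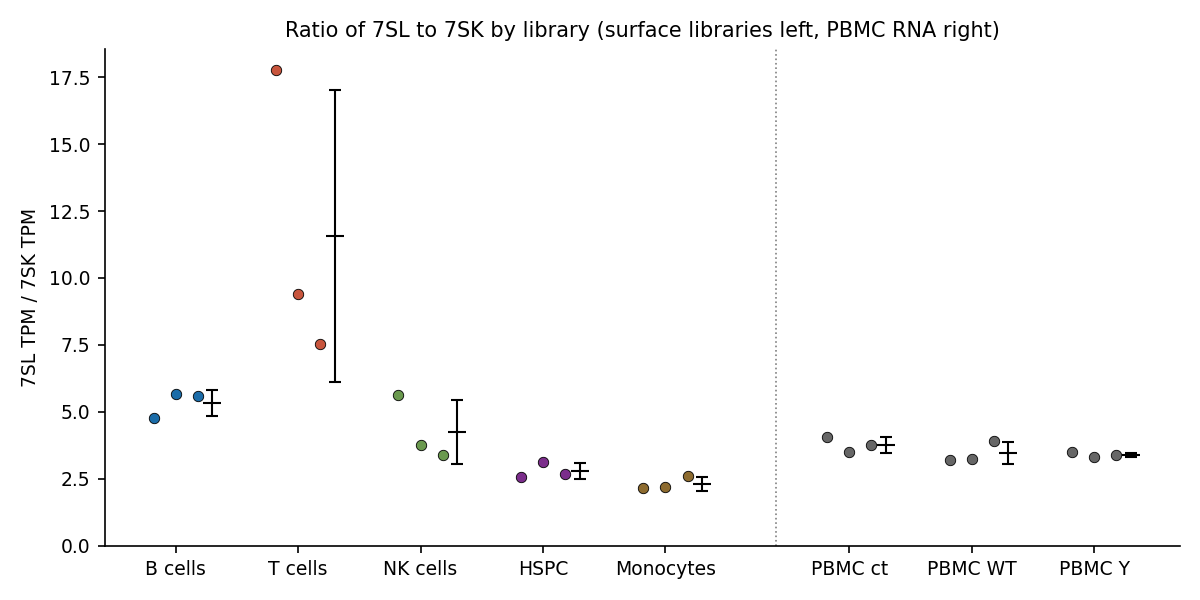
Ratio of 7SL TPM (Rn7s1 and Rn7s2 summed) to 7SK TPM in each of 15 surface libraries (left of the dotted line) and 9 PBMC libraries (right); points are libraries and bars give mean and SD over 3. The 3 T cell points, from 7.54 to 17.8, lie above all other surface libraries; the tables on either side of the line were processed differently and are not compared.

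Within the class annotated misc_RNA, 7SK and 7SL held most of the signal everywhere but took a smaller share in monocytes. The monocyte table lists 566 misc_RNA transcripts, against 180 for each of the other cell types. Over the 180 rows common to all tables the monocyte share was 64.6 to 65.4%, so the longer list changed it little. Over each table's own rows they made up 92.5 to 95.9% of misc_RNA TPM in T cells and 64.5 to 65.2% in monocytes. 7SL alone was 85.6 ± 4.5% in T cells, 78.1 ± 1.4% in B cells, 70.0 ± 5.0% in NK cells, 64.7 ± 1.9% in HSPC and 45.2 ± 1.6% in monocytes (SD, n = 3). 7SK was 8.32 ± 2.95% in T cells and 23.3 ± 1.7% in HSPC, the lowest and highest means. The next most abundant misc_RNA was always the vault RNA Vaultrc5 or one of the Y RNAs Rny1 and Rny3, the latter being partners of the Ro60 protein. One 7SL row was 24.8 times that transcript in T cell library 1 and 1.66 times it in monocyte library 2.

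**Figure D4:**
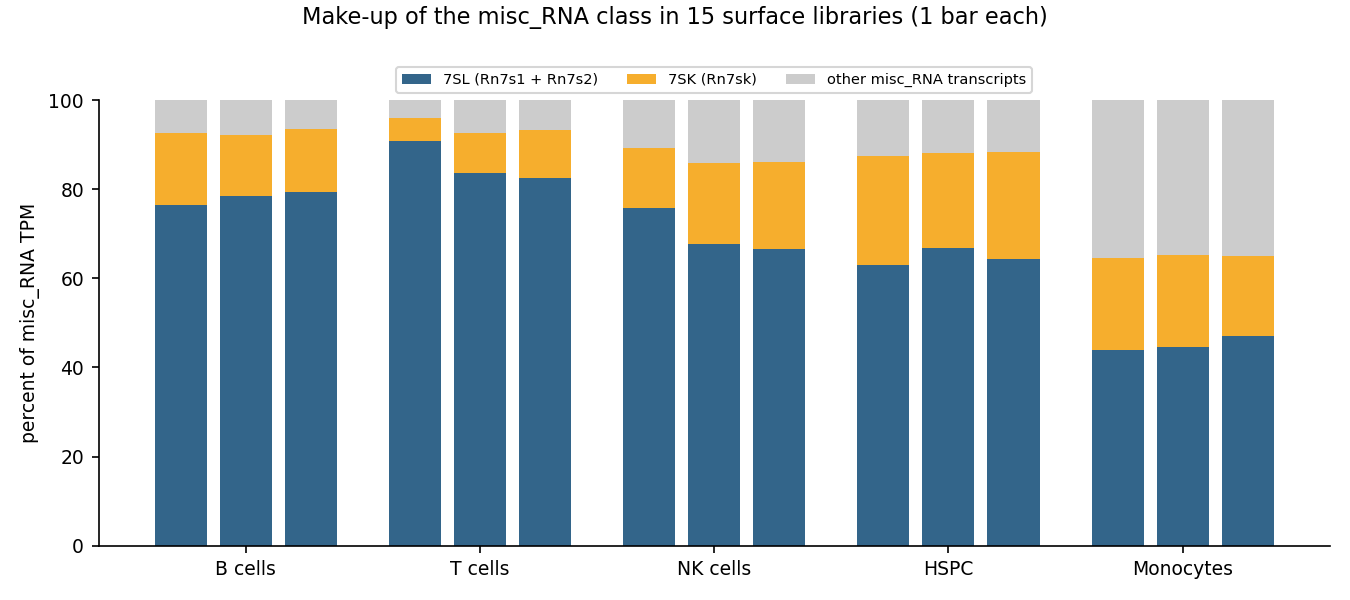
Percent of misc_RNA TPM held by 7SL, 7SK and all other misc_RNA transcripts, with 1 bar for each of 15 surface libraries (566 misc_RNA transcripts listed for monocytes and 180 for the others). 7SK and 7SL together fill 92.5 to 95.9% of the T cell bars and 64.5 to 65.2% of the monocyte bars.

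The rank among all surface transcripts, with the rows set aside left out, did not follow the misc_RNA shares in every cell type. Ranks are of single rows, so that of 7SL is the rank of Rn7s1 alone and not of both 7SL rows together. The Rn7s1 row ranked 1 in all T cell libraries, 2 to 3 in B cells, 3 in HSPC, 4 in NK cells and 7 to 13 in monocytes. 7SK ranked 5 to 8 in HSPC, 6 to 13 in B cells, 9 to 24 in NK cells, 11 to 15 in monocytes and 21 to 36 in T cells. Both RNAs were above the study's hit threshold of 50 TPM in all 15 libraries.

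Other short RNAs that live in small ribonucleoproteins showed other orders on the deposited scale. Rny1 and Rny3 were lowest in HSPC or B cells and highest in monocytes (2026 ± 242 and 2594 ± 475 TPM), and Vaultrc5 was likewise highest in monocytes (2872 ± 191). Rpph1, the RNA of RNase P, was highest in B cells (460 ± 19.2 TPM), and Rmrp, the RNA of RNase MRP, in NK cells (417 ± 40.6 TPM). After rescaling Rmrp differed from the other cell types by 2.00 in HSPC (adjusted p = 3.87e-06, limma; 53.7% called) and 0.51 in NK cells (adjusted p = 0.0381; 43.1% called). It was lower in monocytes (−1.96, adjusted p = 2.65e-07, limma; 87.0% called) and T cells (−0.54, adjusted p = 0.0153; 82.7% called). The B cell value did not pass (−0.01, adjusted p = 0.974, limma; 54.5% called). In T cells, 1 of the 5 that could be tested as deposited passed (Rny3, 0.59, adjusted p = 0.0460, limma), in the same direction as 7SL, where 26.1% of all transcripts were higher. On the rescaled values none of 6 was higher in T cells and 4 were lower (Rny1, Rpph1, Rmrp and Vaultrc5, from −0.54 to −0.75), near the 71.1% of all transcripts that were lower there. In HSPC 4 of 5 were lower as deposited, beside 72.2% of all transcripts. After rescaling Rpph1 and Rmrp of these 5 were higher, beside 32.9% of all transcripts, and none was lower. Terc, the telomerase RNA, could be tested only after rescaling and had its highest value in HSPC (2.83). Its call there can depend on the filter that let it in, so it is not counted with the others.

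7SK and 7SL were only loosely alike across libraries (Pearson r = 0.60 on log2(TPM + 1), 15 libraries that share 5 cell types, a description). Among 1030 other transcripts above the threshold, the patterns most like that of 7SL were Snord3a-202 (r = 0.98), which is U3, a guide of ribosomal RNA processing, then Gm23136-201 (0.97) and the small nucleolar RNA Snord94-201 (0.97). Those most like 7SK were Btg1-202 (0.92), from an antiproliferative gene, Rnu11-201 (0.91), a small nuclear RNA of the minor spliceosome, and the ribosomal protein transcript Rpl36-201 (0.86). After rescaling, Snord3a stayed the transcript most like 7SL (0.98), and none of the 3 most like 7SK was shared with the first scale. The first of these was Mir6236-201 (0.93), annotated as a microRNA. Its rescaled means were 203176 TPM in HSPC, 135061 in B cells, 84444 in NK cells, 30393 in T cells and 17596 in monocytes. A single row thus still took a large part of the rescaled total that differed between cell types.

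Messenger RNAs of the protein partners were scarce on every cell type. No gene of the SRP list (10 genes), the 7SK ribonucleoprotein and P-TEFb list (7 genes) or the RNA polymerase III list (29 genes) reached 50 TPM as deposited. The summed SRP list was 140 ± 7.4 TPM in monocytes and 9.25 ± 4.12 in T cells, and the median of all transcripts tested also lay lower in T cells than in monocytes, by a log2 difference of −3.22. Srp14, which with Srp9 binds the Alu part of 7SL, led the list at 26.8 ± 6.6 TPM in monocytes. After rescaling, Srp14 could be tested and was higher in monocytes (2.22, adjusted p = 1.23e-05, limma; 87.0% of all transcripts called). It was lower in T cells (−2.01, adjusted p = 3.93e-05, limma; 82.7% called) and did not pass in B cells, NK cells or HSPC. As deposited its mean was 4.73 TPM in B cells, the next highest cell type. The calls on Srp14 can therefore depend on the filter, which it could pass through its monocyte level, and they are not read as a result. The median of all transcripts was 2.63 in monocytes and −1.96 in T cells. The 7SK partners summed to 75.8 ± 4.7 TPM in monocytes and 5.99 ± 2.55 in T cells, and the polymerase III list to 227 ± 0.9 and 18.8 ± 7.6.

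In PBMC total RNA, 7SK and 7SL were among the 15 most counted genes and no difference in them between the ct, WT and Y groups passed the test. These libraries held between 4686426 and 9055797 expected counts, of which the ribosomal RNA gene CT010467.1 took 50.5 to 57.0%. 7SK received 27117 to 55449 expected counts per library and 7SL 81274 to 154837. As CPM (counts per 1000000, TMM scaled), 7SK stood at 4745, 6082 and 5709 in ct, at 6049, 5500.4 and 5978 in WT, and at 5917, 5927 and 5462 in Y. The 3 groups overlapped. The 7SL sum stood at 16559, 17963 and 18366 in ct, at 16610.1, 15311 and 20233 in WT, and at 17735, 16898 and 15839 in Y, again with overlap between all groups and the widest spread in WT.

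None of the 3 genes was called in any comparison by edgeR's quasi-likelihood test over 11635 genes, and none had an unadjusted p under 0.05. All genes were called at 2.93% for WT against ct, 1.07% for Y against ct and 1.7% for Y against WT, so few genes were called at all. For 7SK the log2 difference was 0.08 for WT minus ct (95% interval −0.17 to 0.33, adjusted p = 0.883, edgeR), 0.07 for Y minus ct (−0.18 to 0.32, adjusted p = 0.948) and −0.02 for Y minus WT (−0.27 to 0.23, adjusted p = 0.981). For the 7SL sum, a row added after seeing the data, it was −0.02 (−0.30 to 0.26, adjusted p = 0.985, edgeR), −0.07 (−0.35 to 0.21, adjusted p = 0.953) and −0.05 (−0.33 to 0.23, adjusted p = 0.950). The intervals thus leave room for changes of up to 0.35 log2 units downward and 0.33 upward. DESeq2 also called none of the 3, nor gave an unadjusted p under 0.05. On the TPM of the same files 7SL was lower in Y (21347 to 22704 TPM) than in ct (25231 to 27551) and WT (23807 to 25864) without overlap. The summed 7SL TPM was not tested. Limma on its single rows, also added after seeing the data, called neither in Y minus ct. Rn7s1 was at −0.18 (unadjusted p = 0.234 and adjusted p = 0.752, limma) and Rn7s2 at −0.34 (unadjusted p = 0.0186 and adjusted p = 0.496, limma). There 987 of 11635 genes had an unadjusted p under 0.05. Neither row was called in Y minus WT, with Rn7s1 at −0.10 (adjusted p = 0.836, limma) and Rn7s2 at −0.24 (unadjusted p = 0.0737 and adjusted p = 0.500, limma).

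**Figure D5:**
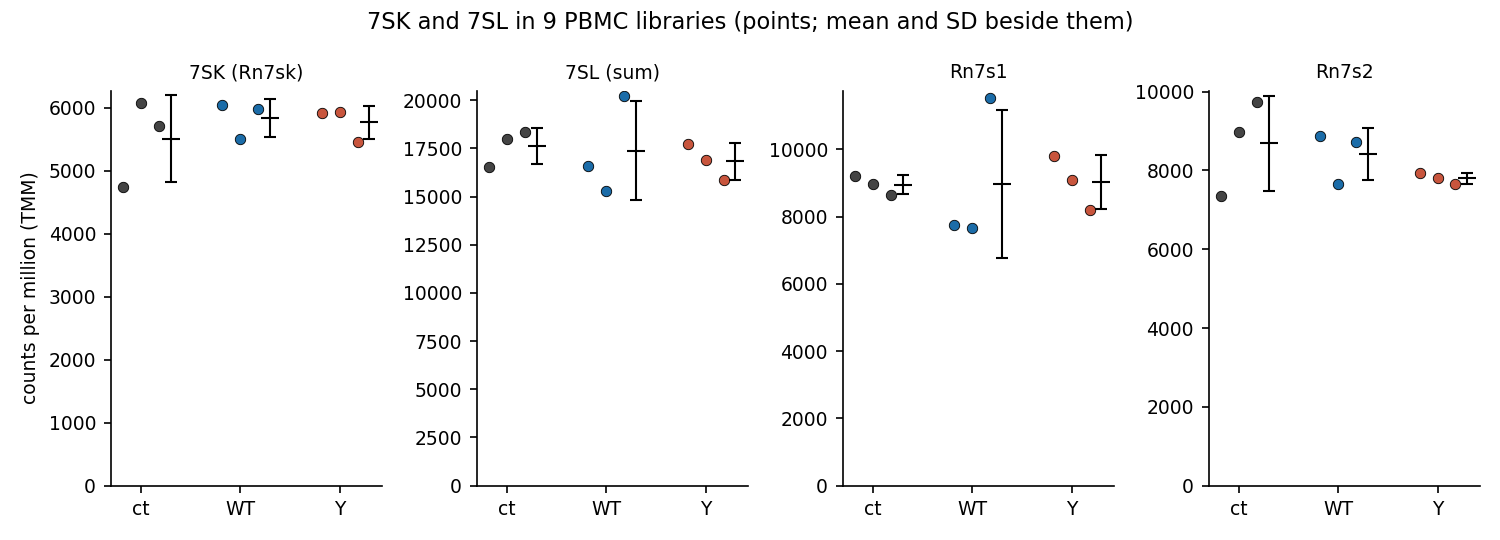
TMM-scaled CPM of 7SK, the 7SL sum and its Rn7s1 and Rn7s2 rows in 9 PBMC libraries; points are libraries and bars give mean and SD over 3. The groups overlap for 7SK and for the 7SL sum; the split between Rn7s1 and Rn7s2 cannot be read because the genes are identical.

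The ratio of 7SL to 7SK counts in PBMC was 3.22 ± 0.27 in ct, 2.97 ± 0.36 in WT and 2.92 ± 0.07 in Y (SD, n = 3). The exact two-sided permutation p was 0.3 for WT against ct, 0.2 for Y against ct and 1.0 for Y against WT, and 3 libraries against 3 cannot go below 0.1. Levels of other cell types moved between these groups: the neutrophil markers summed to 83.3 CPM on average in ct, 70.4 in WT and 205 in Y, and the erythroid markers to 7539, 4611 and 4731. The platelet markers summed to 427, 274 and 326 CPM, the NK markers to 46.4, 62.8 and 44.8, and the monocyte markers to 232, 268 and 224. Their part in the values was not tested.

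Of the protein partner genes in PBMC, 1 was called in 1 comparison, and the share of all genes called there was 1.7%. No gene of the SRP list (10 tested) or the polymerase III list (29 tested) was called in any of the 3 comparisons by edgeR, with at most 1 gene of each list at an unadjusted p under 0.05, and DESeq2 called none of either list. In the 7SK list of 7 genes, Hexim1, the inhibitor of P-TEFb that 7SK holds, was lower in Y than in WT by −0.44 (SE 0.10, adjusted p = 0.0112, edgeR). It stood at 26.1, 29.1 and 29.6 CPM in WT, at 21.4, 21.7 and 19.2 in Y and at 21.8, 24.1 and 22.1 in ct. The WT libraries were above all others, and WT against ct did not pass (0.32, adjusted p = 0.0790, edgeR). The summed NK markers (59.0 to 68.0 CPM in WT, 41.0 to 48.0 in the other groups) and monocyte markers (257 to 274 in WT, 214 to 252 in the others) were likewise higher in every WT library, and their part in the Hexim1 value was not tested. This call was lost with DESeq2, with library totals in place of TMM, with limma on TPM and without WT library 2, WT library 3 or Y library 3. The median log2 difference of each list lay between −0.14 and 0.03 in the 3 comparisons, and that of all genes was 0.00.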

How the data were processed

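AMOUR surface RNA was profiled in 15 libraries and PBMC RNA in 9. The surface values are TPM, deposited by the authors after trimming, removal of duplicates and kallisto quantification; the mouse transcript set is not given in the sources used here. The PBMC values are expected counts that the authors deposited from RSEM after STAR alignment, with gene identifiers of GENCODE M21 (GRCm38), and these were rounded to whole numbers.

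The members, gene lists and tests were chosen with earlier results of these data known. Named genes were the 3 members, list genes that passed a test or led their list, and the 3 transcripts most correlated with each member. The study calls the surface libraries of a cell type biological replicates, but nothing says that libraries of a group came from separate animals, so p-values measure only the spread between these samples, which may be technical. Surface differences were tested with limma 3.58.1 (R 4.3.3) on log2(TPM + 1), with a mean-variance trend, for transcripts above 50 TPM in at least 1 library; a ratio with a pseudocount of 1 was tested by exact permutation. PBMC counts were tested with edgeR 4.0.16 (TMM, robust quasi-likelihood), with DESeq2 1.42.0 as an alternative. The threshold was an adjusted p of 0.05. The receptor gene fixed as Srpra is named Srpr in the files. Tests were checked on simulated data. Copies were found with blastn 2.17.0+. The 7SL sequence is not reported here.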

Additional observations from a re-analysis of the deposited data

How the results depend on the processing

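7SL in T cells was higher than the mean of the other cell types under every alternative run, as deposited or not (1.17 to 2.07). This does not hold against each cell type singly, as the difference from B cells did not pass after rescaling. No PBMC call on the 3 genes changed under any alternative run. Rescaling without ribosomal RNA and the 3 Gm transcripts turned 7SK in T cells (−0.48), HSPC (0.62) and monocytes (−0.70), left 7SL in HSPC at −0.18, short of the threshold, and turned, among pairs that passed on either scale, the 7SK pairs B minus HSPC (−0.16), B minus monocytes (0.90), T minus HSPC (−0.88), NK minus HSPC (−0.39) and HSPC minus monocytes (1.06) and the 7SL pair HSPC minus monocytes (1.33). Removing ribosomal RNA alone brought 7SK in B cells (0.84) past the threshold. Quantile normalization turned 7SL in B cells (−0.61) and HSPC (0.030) and 7SK in T cells (−1.16) and HSPC (1.01), brought 7SK in monocytes (0.63) past the threshold and raised the 7SK pairs called from 4 to 8 of 10 (25.0 to 72.0% of all transcripts called over the 10 pairs). By the same criterion it turned the 7SK pairs B minus HSPC (−0.99), T minus HSPC (−1.73), NK minus HSPC (−1.001), NK minus monocytes (−0.70) and HSPC minus monocytes (0.30), and the 7SL pairs B minus HSPC (−0.51), NK minus HSPC (−0.14) and HSPC minus monocytes (0.55). 7SL in B cells missed the threshold without the filter on low TPM (0.64, adjusted p = 0.0554, limma) and without monocytes (0.45, adjusted p = 0.0638). The cause of these changes was not tested.

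Leaving out 1 library at a time gave 0.30 to 0.60 for 7SK in NK cells, which passed without NK library 1 (0.60, adjusted p = 0.0416, limma) or T library 2 (0.48, adjusted p = 0.0343), and −1.91 to −1.29 for the ratio in T cells. In PBMC it gave 0 to 1 calls for the SRP list in Y against ct and in Y against WT, and 0 to 1 for the 7SK list in Y against WT, where DESeq2, library totals and limma on TPM gave 0. Libraries with the same replicate number were correlated over 0.1 in 4 of 30 surface pairs and 0 of 9 PBMC pairs. The surface values ran from −0.41 to 0.59, with a median of −0.013 beside −0.009 for pairs with other numbers. With 3 libraries a group this cannot exclude that some libraries were paired. With a replicate block, 7SK in NK cells passed (0.43, adjusted p = 0.0498, limma). TPM keep no depth, so counting error of the surface values is unknown.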
